A study of Mus musculus with 7 samples.

Results

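The genes described here are 35 mouse effectors of the type I interferon response that lie outside the OAS, IFIT, GBP, IRG and Schlafen families. They were chosen by symbol, each matched 1 Ensembl identifier, and they make up 35 of the 32212 genes in the deposited files. Transcripts were measured by mRNA sequencing of bulk tumours from wild-type C57BL/6J mice, injected beneath the skin at 6 weeks of age with LLC cells (Lewis lung carcinoma, a mouse tumour line that grows in this strain). The treated mice received the herbal medicine Ze-qi decoction, here ZQD, in its high dose of 42.67 g/kg (3 libraries, ZQD 1 to ZQD 3), and the control mice carried the same tumours with no treatment (4 libraries, control 1 to control 4). Mice were assigned to groups after 3 days, and tumours were taken on day 22 by the protocol or day 21 by the design text. Whether each library stands for a different mouse is not stated in the labels, so the p-values reflect the spread between these samples alone, and that spread may be technical.

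Type I interferons bind a receptor on nearly all cells and activate the kinases JAK1 and TYK2. Downstream of them the complex ISGF3, which holds STAT2 and IRF9, binds the interferon-stimulated response element, a repeat of GAAA runs, in the promoters of a large set of genes. Their products cut, edit or sequester viral nucleic acids, block the assembly or release of virus particles, or tag proteins with the ubiquitin-like modifier ISG15, and some of them limit the response itself.

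The libraries held 34765330 to 38673663 counted reads in ZQD and 32065288 to 49914394 in controls. The sample label names tumour cells, whereas the tissue was whole tumour. The macrophage gene Cd68 was at 219 to 333 FPKM in ZQD and 225 to 287 FPKM in controls. The epithelial gene Epcam was at 0.124 to 0.288 FPKM in ZQD and 0.201 to 0.242 FPKM in controls. The levels of these genes do not settle which cells the samples held. In such bulk samples fewer cells of a type and less RNA per cell cannot be told apart. Levels are FPKM, which count reads per gene length and per library total, and differences are log2(FPKM + 0.5) in ZQD less that in controls, a scale on which changes of weakly expressed genes come out too small. Every one of the 35 genes exceeded 0.5 FPKM in all 7 libraries, the lowest value being 2.02 FPKM for Ddx60 in ZQD 3, so none entered the test through one group only. Mitochondrially encoded genes took 10.2% ± 1.23 of reads in ZQD and 6.71% ± 1.19 in controls (SD, n = 3 and 4; two-sided exact permutation p = 0.0286, the smallest that 35 splits allow), and this share lowers the FPKM of all other genes.

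Most of the effector genes were lower in ZQD tumours. On the log2(FPKM + 0.5) scale the most negative differences were those of Rsad2 (log2 fold change -1.30), Cmpk2 (-1.20), Usp18 (-1.08) and Isg15 (-0.999). The ZQD means of these genes stood at 0.378 to 0.489 times the control means, and that of Mx2 (log2 fold change -0.91) at 0.487 times. Of the 35 genes, 33 had a negative log2 fold change (58.2% of all genes tested) and 2 a positive one, and the members' median was -0.50 where the median over all 14838 genes tested was -0.043. No member passed the limma test at a Benjamini-Hochberg adjusted p under 0.05 (0 of 35, adjusted p from 0.147 upward), and neither did any other gene (0%). At an unadjusted p under 0.05, 24 members were lower and 1 was higher, where 10.3% of all genes tested were lower and 5.21% higher. In 16 members all ZQD libraries lay below all controls, against 9.84% of all genes tested, and in 0 members they all lay above (5.35%).

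The split of all genes moved with the scaling more than the members' count did. As deposited, 1533 genes were lower and 773 higher at an unadjusted p under 0.05, against 1093 and 1093 with TMM factors, 1046 and 1142 without mitochondrially encoded genes, and 2856 and 379 on the TPM scale. Members lower at that threshold numbered 24, 24 and 29 under these 3 alternatives, with medians of -0.45, -0.44 and -0.60. edgeR on reads rebuilt from the FPKM called 0 members and 0% of all genes, with 24 members lower at an unadjusted p under 0.05 against 7.33% of all genes. DESeq2 on the same reads called 13 members, all lower, where 1.65% of its genes were called lower and 3.85% in either direction. Below, DESeq2 adjusted p-values are printed only for members that it called. For the members given by library that DESeq2 did not call, they ran from 0.0737 (Zbp1) to 0.974 (Nmi). The smallest edgeR adjusted p of the members was 0.123.

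**Figure D1:**
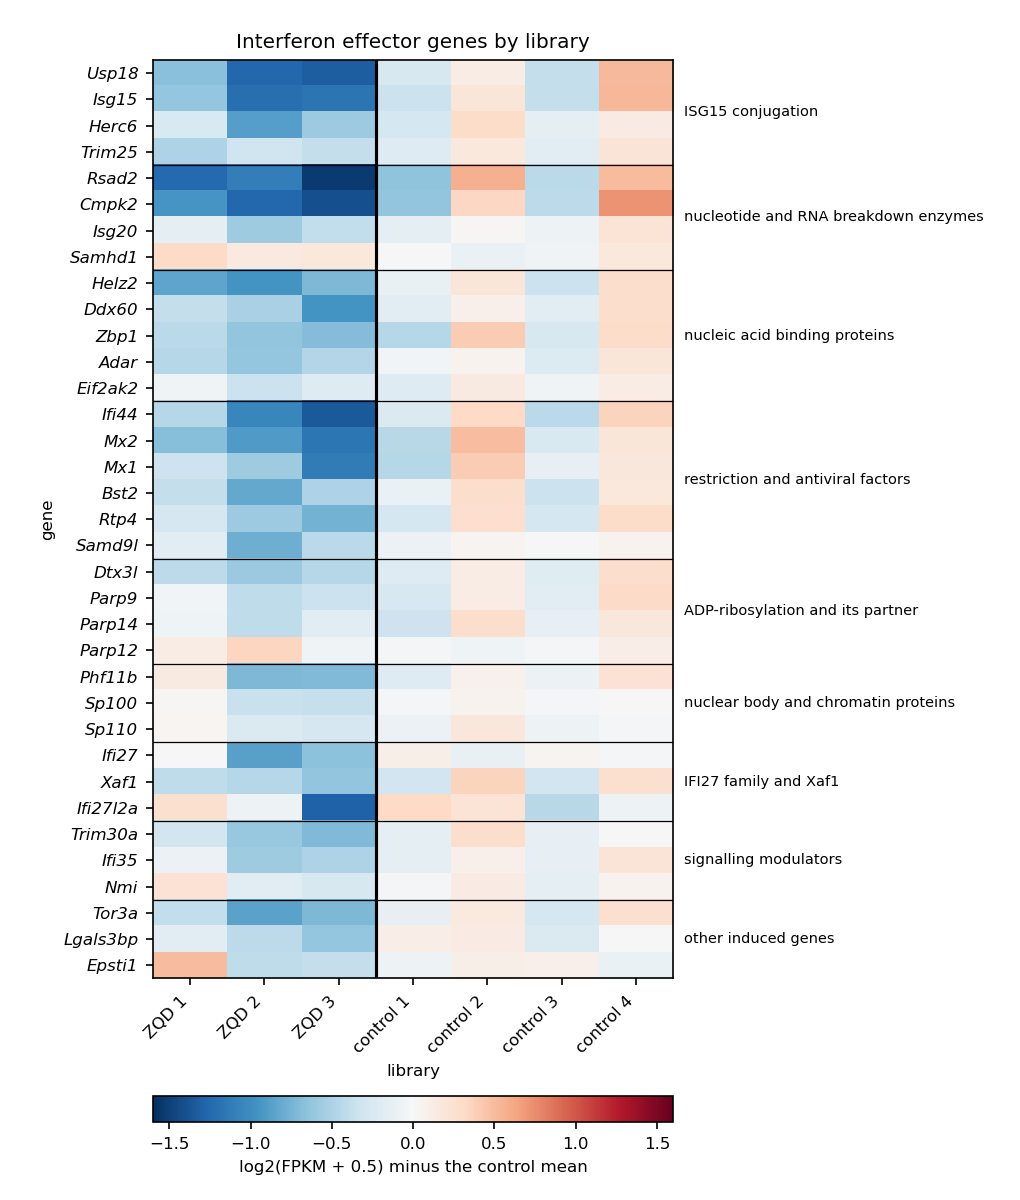
Each cell is the log2(FPKM + 0.5) of a gene in a library minus the mean of the 4 controls, with ZQD libraries left of the vertical line and controls right of it, and genes grouped by role. The ZQD columns are blue for most genes, palest in ZQD 1, and Samhd1 and Parp12 stand out with a positive difference (log2 fold change 0.21 and 0.14).

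Promoter windows, the 250 bases before the annotated start in RefSeq (GRCm38.p6), were had for 25 of the 35 genes. A pair of GAAA runs parted by any 2 bases, searched on both strands, occurred in 6 of the 25 (24%), namely Bst2, Ddx60, Isg15, Phf11b, Rsad2 and Trim30a, and in 3.46% of 27025 genes with a window. The same runs parted by 1 base occurred in Ifi44, Isg15 and Sp100, 3 of the 25 (12%), and in 3.13% of all genes. These runs were in 32% of the 25 at either spacing, against 6.24% of all genes. TTC and GAA parted by any 3 bases were also searched. They occurred in 4 of the 25 (16%), namely Bst2, Eif2ak2, Isg20 and Samhd1, and in 8.13% of all genes. The median log2 fold change was -0.29 over these 4 genes and -0.49 over the other 21. It was -0.59 over the 6 genes with the 2-base GAAA spacing and -0.40 over the other 19. These medians are descriptions without a test. The 4 of those 6 genes with the most negative log2 fold changes are shown with Samhd1, which had the most positive one and no GAAA match. Each sequence runs 5′ to 3′ on the gene's strand and ends at the base before the start, and capitals mark GAAA runs parted by 2 bases, which read TTTC where the match is on the opposite strand.
Rsad2 (chr12:26456453-26456702, minus strand): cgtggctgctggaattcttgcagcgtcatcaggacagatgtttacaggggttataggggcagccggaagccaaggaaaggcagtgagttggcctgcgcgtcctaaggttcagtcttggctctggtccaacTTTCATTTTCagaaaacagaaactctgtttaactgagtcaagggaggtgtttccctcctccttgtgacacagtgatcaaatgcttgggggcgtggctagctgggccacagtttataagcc
Isg15 (chr4:156200819-156201068, minus strand): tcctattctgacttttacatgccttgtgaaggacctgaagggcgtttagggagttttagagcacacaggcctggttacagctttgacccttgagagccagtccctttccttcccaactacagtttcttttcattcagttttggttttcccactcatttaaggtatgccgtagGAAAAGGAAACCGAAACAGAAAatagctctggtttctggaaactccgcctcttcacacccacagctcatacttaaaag
Ddx60 (chr8:61927837-61928086, plus strand): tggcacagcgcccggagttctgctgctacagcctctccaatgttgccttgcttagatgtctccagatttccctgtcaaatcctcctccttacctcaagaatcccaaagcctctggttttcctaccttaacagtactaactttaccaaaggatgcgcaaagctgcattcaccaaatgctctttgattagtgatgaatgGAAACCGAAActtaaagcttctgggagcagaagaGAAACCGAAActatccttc
Bst2 (chr8:71537473-71537722, minus strand): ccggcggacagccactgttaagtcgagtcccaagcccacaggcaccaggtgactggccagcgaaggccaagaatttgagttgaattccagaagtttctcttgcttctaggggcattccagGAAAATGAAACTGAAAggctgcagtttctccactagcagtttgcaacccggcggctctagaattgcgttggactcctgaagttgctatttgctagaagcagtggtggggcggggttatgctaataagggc
Samhd1 (chr2:157135097-157135346, minus strand): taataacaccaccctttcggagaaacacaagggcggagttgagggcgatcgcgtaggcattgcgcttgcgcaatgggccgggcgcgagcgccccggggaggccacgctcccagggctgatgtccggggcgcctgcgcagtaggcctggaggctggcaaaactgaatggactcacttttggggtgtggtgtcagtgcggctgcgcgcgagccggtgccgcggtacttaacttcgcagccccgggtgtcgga
In Isg15, 3 overlapping matches form 1 run that opens 78 bases before the start, and Ddx60 holds 2 separate matches, the nearer ending 10 bases before it. Bst2 holds 2 overlapping matches, and in Rsad2 the single match opens 120 bases before the start. A match is a run of letters and not a measured binding site.

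Of the ISG15 conjugation genes, 4 of 4 were lower at an unadjusted p under 0.05, 3 of them without overlap of the groups. For this and each later role group, 10.3% of all genes tested were lower at that threshold. In 9.84% of all genes tested, all ZQD libraries lay below all controls. Isg15 (ENSMUSG00000035692), the ubiquitin-like modifier itself, was at 71.2, 47.3 and 48.9 FPKM in ZQD 1 to 3, against 86.9, 126, 84.1 and 159.65 FPKM in controls 1 to 4. All ZQD libraries lay below all controls, and ZQD 1 lay closest to them. Its means were 55.8 ± 13.4 FPKM in ZQD and 114 ± 35.9 FPKM in controls, and the log2 fold change was -0.999 (SE 0.244, limma adjusted p = 0.168, DESeq2 adjusted p = 0.00272). Usp18 (ENSMUSG00000030107), the protease that removes ISG15 and also damps signalling at the interferon receptor, was at 9.11, 5.92 and 5.65 FPKM in ZQD, against 12.3, 16.04, 11.3 and 21.5 FPKM in controls. The groups again did not overlap, and control 4 was the highest library for both genes. The log2 fold change of Usp18 was -1.08 (SE 0.238, limma adjusted p = 0.154, DESeq2 adjusted p = 0.000976). Herc6, the main ISG15 ligase of the mouse, averaged 11.7 ± 2.71 FPKM in ZQD and 17.5 ± 3.21 in controls (log2 fold change -0.57), with ZQD 1 inside the range of controls. Trim25, a ubiquitin ligase of the RIG-I pathway, averaged 27.2 ± 1.67 FPKM in ZQD and 36.3 ± 5.59 in controls (-0.40) without overlap.

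Enzymes that act on nucleotides and RNA held both the most negative and the most positive differences among the 35 genes. Rsad2 (ENSMUSG00000020641), which encodes viperin, an enzyme that makes a chain-terminating nucleotide, was at 22.9, 25.2 and 18.6 FPKM in ZQD, against 34.8, 82.0, 40.6 and 78.1 FPKM in controls. The controls formed a low pair (1 and 3) and a high pair (2 and 4), and every ZQD library lay below both. Its log2 fold change was -1.30 (SE 0.305, limma adjusted p = 0.156, DESeq2 adjusted p = 0.0152) and ranged from -1.51 to -1.10 with 1 library left out. Cmpk2, a mitochondrial nucleotide kinase whose gene is the next coding gene to Rsad2, followed it, with 12.9 ± 2.25 FPKM in ZQD and 32.3 ± 14.3 in controls (-1.20). Isg20, an RNA exonuclease, averaged 11.1 ± 1.70 FPKM in ZQD and 14.4 ± 1.76 in controls (-0.37), with ZQD 1 within the range of controls. Samhd1 (ENSMUSG00000027639), which breaks down the nucleotides needed for DNA synthesis, went the other way, at 57.3, 51.2 and 51.6 FPKM in ZQD, against 45.9, 42.9, 44.2 and 51.8 FPKM in controls. ZQD 2 and ZQD 3 lay just under control 4, so the groups overlapped. Its log2 fold change was 0.21 (SE 0.091, unadjusted p = 0.0497 and adjusted p = 0.321 in limma), and it was the 1 member higher at that threshold.

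**Figure D2:**
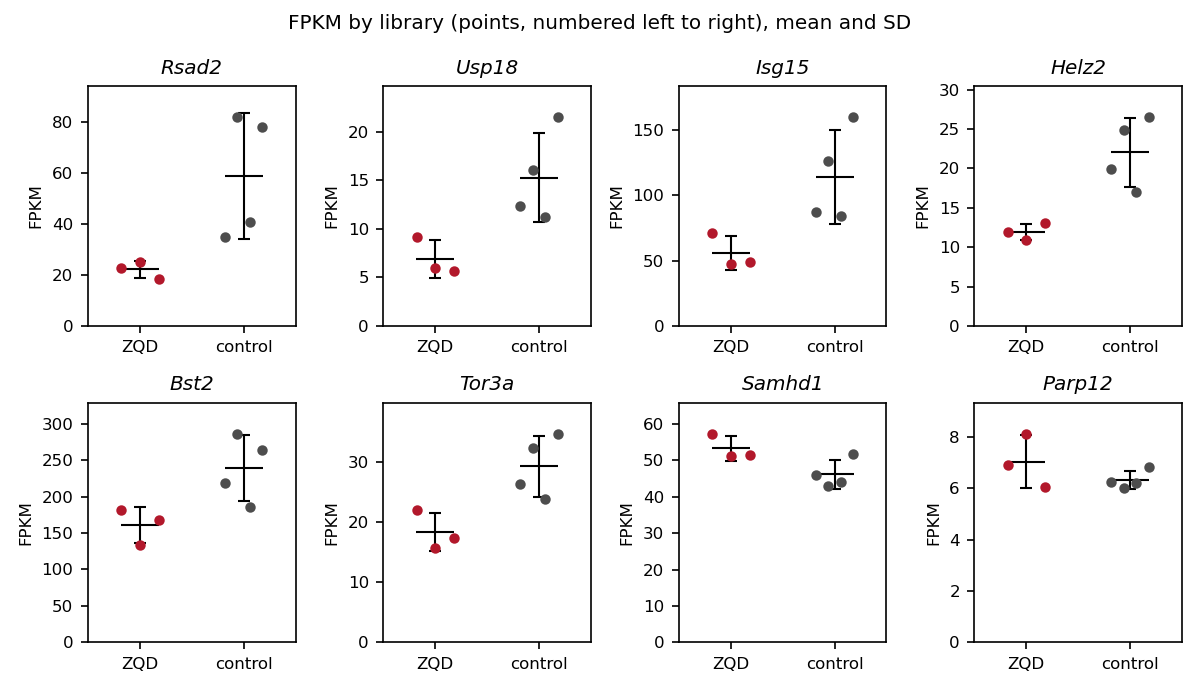
FPKM of 8 genes, with a point for each library in the order of its number from left to right, ZQD left of control in each panel, and bars for mean and SD (n = 3 and 4). In Rsad2, Usp18, Isg15, Helz2, Bst2 and Tor3a every ZQD point lies below every control point, while the groups overlap in Samhd1 and Parp12.

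Proteins that bind double-stranded or unusual nucleic acids were lower in 4 of 5 cases at an unadjusted p under 0.05. Helz2 (ENSMUSG00000027580), a helicase and nuclear receptor coactivator, had the smallest p of the 35 genes. It was at 11.9, 10.97 and 13.0 FPKM in ZQD, against 19.9, 24.8, 17.0 and 26.5 FPKM in controls, and its log2 fold change was -0.84 (SE 0.154, limma adjusted p = 0.147, DESeq2 adjusted p = 0.000121). The ZQD libraries kept within a narrow range, and ZQD 1 was not the highest of them. Zbp1 (ENSMUSG00000027514), the sensor of Z-form nucleic acids that can start necroptosis, was the most abundant of the 5, at 45.8, 39.8 and 38.2 FPKM in ZQD, against 45.4, 82.4, 52.1 and 76.5 FPKM in controls. ZQD 1 just exceeded control 1, and the log2 fold change was -0.59 (SE 0.206, limma adjusted p = 0.251). Adar, which edits adenosine to inosine in double-stranded RNA, averaged 9.77 ± 0.611 FPKM in ZQD and 14.2 ± 1.77 in controls (-0.51), and Ddx60, a helicase, 2.72 ± 0.636 and 4.42 ± 0.764 FPKM (-0.62), both without overlap. Eif2ak2, which encodes the kinase PKR, was at 32.5 ± 3.26 FPKM in ZQD and 37.7 ± 4.35 in controls (-0.21, limma adjusted p = 0.413), and its groups overlapped.

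Restriction factors and other antiviral proteins were lower in 6 of 6 cases at an unadjusted p under 0.05, 4 of them without overlap. Bst2 (ENSMUSG00000046718), tetherin, which holds budding virus at the cell surface, had the highest mean FPKM of the 35 genes in controls, while in ZQD Lgals3bp averaged 163 FPKM and Bst2 161 FPKM. By library Bst2 was at 181, 133 and 168 FPKM in ZQD, against 219, 286, 186 and 264 FPKM in controls, and its log2 fold change was -0.56 (SE 0.169, limma adjusted p = 0.204, DESeq2 adjusted p = 0.0455). The margin between the groups was small, from 181 FPKM in ZQD 1 to 186 FPKM in control 3. Mx2 (ENSMUSG00000023341), a dynamin-like GTPase, was at 4.41, 3.72 and 3.05 FPKM in ZQD, against 5.31, 10.6, 6.18 and 8.53 FPKM in controls, and its log2 fold change was -0.91 (SE 0.224, limma adjusted p = 0.168). Mx1 averaged 8.81 ± 2.45 FPKM in ZQD and 14.3 ± 3.70 in controls (-0.67), with ZQD 1 inside the range of controls. Laboratory strains such as C57BL/6 are known to carry defective alleles of both Mx genes, and the annotation lists Mx2 as a polymorphic pseudogene, so these are transcript levels only. Ifi44 averaged 13.6 ± 4.599 FPKM in ZQD and 26.6 ± 7.15 in controls (-0.95) and Samd9l, a restriction factor of poxviruses, 28.0 ± 5.99 and 38.3 ± 1.69 FPKM (-0.46), both without overlap. Rtp4 averaged 27.0 ± 4.81 FPKM in ZQD and 39.7 ± 8.91 in controls (-0.53), with ZQD 1 inside the range of controls.

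Of the ADP-ribosylation genes, 1 of 4 was lower at an unadjusted p under 0.05. That gene was Dtx3l (ENSMUSG00000049502), a ubiquitin ligase that works as a pair with PARP9, at 21.7, 19.3 and 21.2 FPKM in ZQD, against 25.2, 31.9, 25.6 and 35.8 FPKM in controls. No ZQD library reached the lowest control, and the log2 fold change was -0.49 (SE 0.133, limma adjusted p = 0.186, DESeq2 adjusted p = 0.0402). Its partner Parp9 averaged 24.2 ± 3.33 FPKM in ZQD and 29.4 ± 5.49 in controls (-0.27, limma adjusted p = 0.435) with overlapping groups. The genes of this pair lie head to head on opposite strands and share 458 exonic bases in GENCODE M21, and whether the reads kept their strand is not stated, so reads in that stretch cannot be told apart. Parp14 (ENSMUSG00000034422), a mono-ADP-ribosyltransferase and the most abundant of the 4, was at 32.0, 25.4 and 29.8 FPKM in ZQD, against 26.8, 41.2, 30.6 and 38.3 FPKM in controls (log2 fold change -0.22, limma adjusted p = 0.530). Parp12 (ENSMUSG00000038507), a zinc-finger member of the same family, was at 6.93, 8.13 and 6.06 FPKM in ZQD, against 6.25, 6.02, 6.22 and 6.82 FPKM in controls. The highest value was that of ZQD 2, the groups overlapped, and the log2 fold change of 0.14 (limma adjusted p = 0.577) was 0.033 without ZQD 2.

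The nuclear body and chromatin genes Sp100, Sp110 and Phf11b held 0 members at an unadjusted p under 0.05. Sp100 (ENSMUSG00000026222), a constituent of PML nuclear bodies, was at 25.7, 19.6 and 19.5 FPKM in ZQD, against 25.0, 26.3, 24.8 and 25.4 FPKM in controls. ZQD 2 and ZQD 3 lay below all controls, while ZQD 1 lay among them (log2 fold change -0.24, SE 0.108, limma adjusted p = 0.332). Sp110 averaged 14.1 ± 1.71 FPKM in ZQD and 15.7 ± 1.45 in controls (-0.16), and Phf11b 16.6 ± 6.28 and 21.7 ± 2.97 FPKM (-0.42). All 3 genes have close relatives in the mouse genome, so their values are uncertain.

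Among Ifi27, Ifi27l2a and Xaf1, 2 of 3 genes were lower at an unadjusted p under 0.05. Ifi27 (ENSMUSG00000064215), a small mitochondrial membrane protein, was at 29.2, 15.8 and 18.4 FPKM in ZQD, against 31.5, 26.9, 30.4 and 28.8 FPKM in controls. ZQD 1 lay inside the range of controls and the other two lay well below it, and the log2 fold change was -0.51 (SE 0.185, limma adjusted p = 0.258), or -0.77 to -0.33 with 1 library left out. Ifi27l2a, its near relative and next coding gene, varied most widely in ZQD, at 18.9 ± 9.15 FPKM and 22.8 ± 5.23 in controls (-0.37, and 0.087 without ZQD 3). Xaf1, an antagonist of the apoptosis inhibitor XIAP, averaged 16.6 ± 1.41 FPKM in ZQD and 24.1 ± 6.05 in controls (-0.50) without overlap.

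The signalling modulators included 2 of 3 lower genes at that threshold. Trim30a (ENSMUSG00000030921), a rodent TRIM protein that limits Toll-like receptor signalling, was at 26.0, 20.8 and 19.3 FPKM in ZQD, against 28.7, 38.6, 28.9 and 31.9 FPKM in controls. The groups did not overlap, and the log2 fold change was -0.53 (SE 0.137, limma adjusted p = 0.176, DESeq2 adjusted p = 0.0331), with close Trim30 relatives that make the value uncertain. Ifi35 averaged 12.4 ± 2.41 FPKM in ZQD and 16.3 ± 2.09 in controls (-0.38). Its binding partner Nmi (ENSMUSG00000026946) was at 37.2, 27.9 and 26.5 FPKM in ZQD, against 30.9, 34.8, 28.4 and 33.0 FPKM in controls. ZQD 1 held the highest and ZQD 3 the lowest value of all 7 libraries, and the log2 fold change was -0.070 (limma adjusted p = 0.8288, and 0.022 without ZQD 3).

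Of the remaining 3 genes, Tor3a and Lgals3bp were lower at an unadjusted p under 0.05. Tor3a (ENSMUSG00000060519), an ATPase of the endoplasmic reticulum, was at 22.0, 15.8 and 17.4 FPKM in ZQD, against 26.3, 32.3, 23.8 and 34.7 FPKM in controls, and its log2 fold change was -0.66 (SE 0.158, limma adjusted p = 0.163, DESeq2 adjusted p = 0.0100). No ZQD library reached the lowest control. Lgals3bp (ENSMUSG00000033880), a secreted galectin-binding glycoprotein, was at 189, 161 and 139 FPKM in ZQD, against 231, 235, 182 and 213 FPKM in controls (-0.41, limma adjusted p = 0.228). ZQD 1 exceeded control 3. Epsti1 averaged 35.1 ± 13.9 FPKM in ZQD and 35.8 ± 2.67 in controls. Its highest value of all 7 libraries was that of ZQD 1 (51.1 FPKM), its lowest those of ZQD 2 and ZQD 3 (26.9 and 27.3 FPKM), and its log2 fold change of -0.093 was 0.012 in edgeR and in DESeq2.

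**Figure D3:**
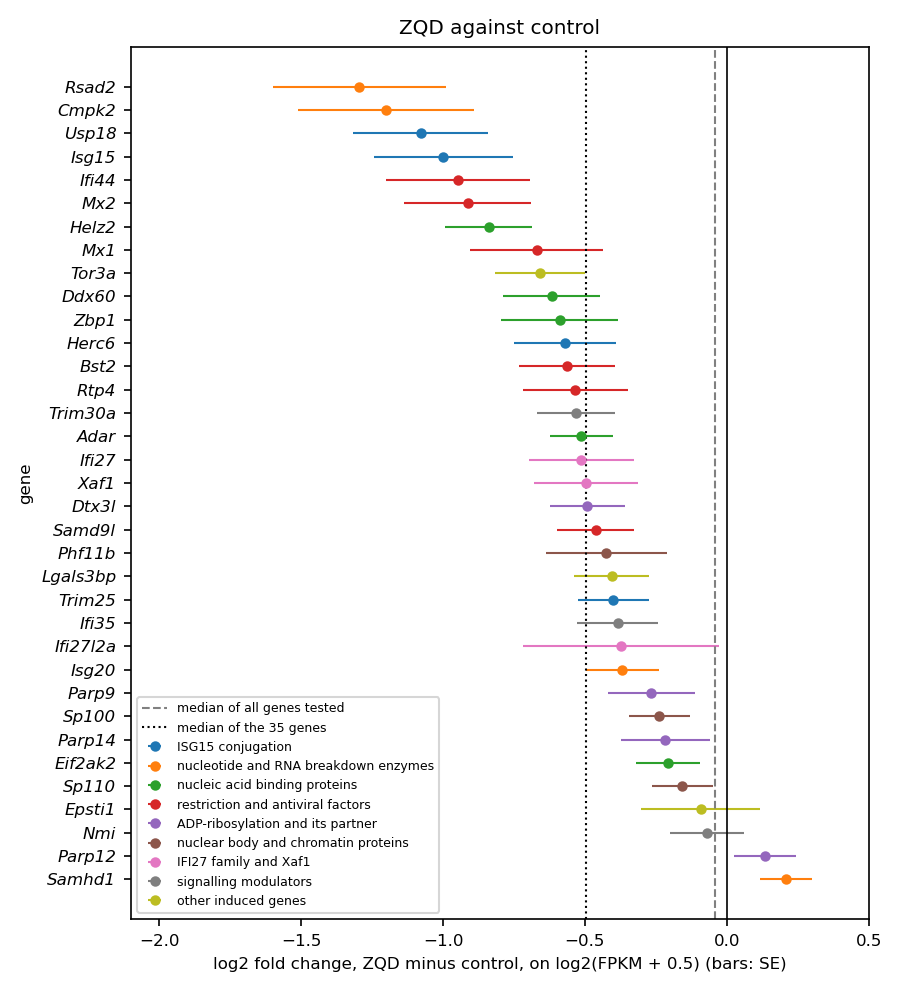
Points are log2 fold changes (ZQD minus control, on log2(FPKM + 0.5)) of the 35 genes with SE bars, coloured by role; the dotted line is their median (-0.50) and the dashed line that of all 14838 genes tested (-0.043). Rsad2 and Cmpk2 lie farthest to the left, and Parp12 and Samhd1 lie to the right of 0.

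The genes varied together from library to library as well as between the groups. Within the controls, 29 of the 35 genes (82.9%) were higher in both controls 2 and 4 than in both controls 1 and 3, an order held by 20.0% of all genes tested. The exceptions were Ifi27, Ifi27l2a, Parp12, Samhd1, Lgals3bp and Epsti1. The median difference of the members from their control mean was 0.15 and 0.20 in controls 2 and 4 and -0.18 and -0.17 in controls 1 and 3. Within ZQD, library 1 was the highest for 31 of the 35 genes (88.6%), against 37.9% of all genes tested, with medians of -0.27 in ZQD 1, -0.58 in ZQD 2 and -0.62 in ZQD 3. ZQD 2 and ZQD 3 both lay below all controls in 31 genes (88.6%, against 15.3% of all genes tested). ZQD 1 reached the range of controls or exceeded it in 19 (54.3%, against 70.1% of all genes tested). Of the members, 28 were lower at an unadjusted p under 0.05 without ZQD 1, 18 without ZQD 2 and 16 without ZQD 3. In these fits 8.38%, 7.42% and 9.97% of all genes tested were lower. These orders were noticed in the data and are descriptions. The mitochondrially encoded share of reads was 11.1%, 10.7% and 8.78% in ZQD 1 to 3 and 6.47%, 7.26%, 7.96% and 5.18% in controls 1 to 4, and its part in these orders was not tested.

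Upstream of these genes, the interferon transcripts themselves were near the limit of detection. Of 21 interferon genes 9 were matched, and 1, Ifng, passed the filter (log2 fold change 0.12, limma adjusted p = 0.837). Ifnb1, the fibroblast interferon, reached no more than 14 reads per library, at 0.217, 0.0690 and 0.0767 FPKM in ZQD, against 0.267, 0, 0.166 and 0.474 FPKM in controls. At this depth no difference in it was detectable. Of 20 receptor and signalling genes, 5 were lower and 3 higher at an unadjusted p under 0.05 (median log2 fold change -0.081). Of all genes tested, 10.3% were lower and 5.21% higher at that threshold. Irf9, the DNA-binding subunit of ISGF3, was at 15.04, 12.6 and 11.9 FPKM in ZQD, against 16.1, 20.3, 16.9 and 20.6 FPKM in controls (-0.47, limma adjusted p = 0.177), and Stat2 at 50.5, 43.2 and 41.6 FPKM in ZQD, against 49.6, 71.8, 55.0 and 73.6 FPKM in controls (-0.45, limma adjusted p = 0.245). Stat2 overlapped between the groups through ZQD 1 and control 1, whereas Irf9 did not overlap. Irf7, the factor that amplifies interferon transcription, was at 23.8, 19.5 and 14.9 FPKM in ZQD, against 32.9, 43.2, 27.5 and 45.6 FPKM in controls (-0.92, limma adjusted p = 0.154). Socs1, an inhibitor of JAK kinases, had a log2 fold change of -0.53 and Irf5 one of 0.32, both at an unadjusted p under 0.05. Irf9, Stat2 and Irf7 were all higher in controls 2 and 4 than in controls 1 and 3. Of the 20 genes, 5 held that order (25%), against 20.0% of all genes tested.

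Among 13 nucleic acid sensor genes 4 were lower and 1 higher at an unadjusted p under 0.05, where 10.3% of all genes tested were lower and 5.21% higher. The cytosolic RNA sensors Rigi (-0.47) and Dhx58 (-0.77) were among the lower ones, and Tlr7, the endosomal RNA receptor, was the higher one (0.59, limma adjusted p = 0.154). The OAS genes and the IFIT genes, 2 classic families of the same response, had medians of -0.85 over 8 genes and -0.93 over 5, with 7 and 4 lower at that threshold. The 11 guanylate-binding protein genes, which interferon gamma also induces strongly, had a median of -0.066, with 0 lower and 2 higher. The higher ones were Gbp2b (1.49, limma adjusted p = 0.126) and Gbp8 (0.35, limma adjusted p = 0.267). Gbp2b averaged 4.93 FPKM in ZQD and 1.37 FPKM in controls without overlap. Of the 11 genes, 10 were higher in controls 2 and 4 than in controls 1 and 3, an order held by 20.0% of all genes tested. The difference between these lists was not tested.

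**Figure D4:**
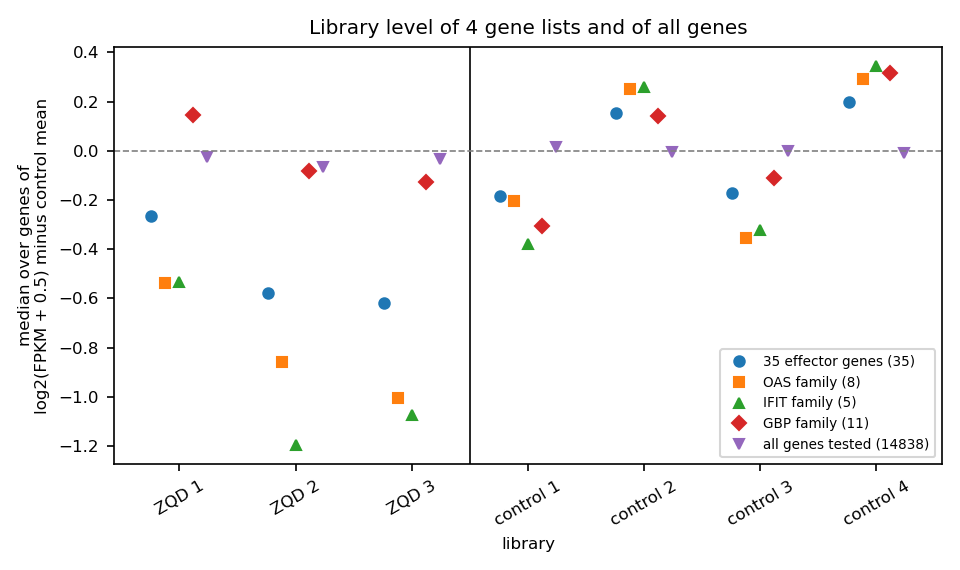
For each library the points give the median over the genes of a list of log2(FPKM + 0.5) minus the mean of the controls, with ZQD left of the line and controls right of it, the number of genes in brackets, and all genes tested as a further set. The 35 genes, the OAS and IFIT genes lie below 0 in all ZQD libraries, the GBP genes straddle 0 there (0.14, -0.082 and -0.13), and all 4 lists are higher in controls 2 and 4 than in controls 1 and 3.

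Markers of cell types that the tumour could hold were set beside these values. Of 10 macrophage markers 9 were tested. At an unadjusted p under 0.05, 0 were lower and 3 higher, against 10.3% and 5.21% of all genes tested. The 10 markers summed to 835 to 1038 FPKM in ZQD and 723 to 927 FPKM in controls. The 7 neutrophil markers summed to 19.1 to 75.6 FPKM in ZQD and 13.4 to 32.5 FPKM in controls, with 0 of 6 tested lower and 0 higher. Plasmacytoid dendritic cells, the most productive source of type I interferon, left little trace. Their 6 markers summed to 1.604 to 2.94 FPKM in ZQD and 0.487 to 2.48 FPKM in controls. Only Cox6a2 among them passed the filter, at 0.684 to 1.56 FPKM in ZQD and 0.299 to 1.83 FPKM in controls. It was highest in control 1. The skeletal muscle markers Acta1, Myh4 and Tnnt3 were also highest there, and Ckm was highest in ZQD 3. The cell source of Cox6a2 was not tested. Siglech was at 0.051 to 0.393 FPKM in ZQD and 0 to 0.142 FPKM in controls. The 6 T cell markers summed to 19.4 to 27.5 FPKM in ZQD and 13.3 to 23.1 FPKM in controls. The 5 fibroblast markers varied more, summing to 17.6 to 141 FPKM in ZQD and 8.39 to 67.6 FPKM in controls. Col1a1 was at 85.8 FPKM in ZQD 2, against 15.9 and 7.32 FPKM in ZQD 1 and ZQD 3. Col1a2, Dcn and Lum were also highest in ZQD 2 among the ZQD libraries, whereas Pdgfra was lowest there. The part of these cells in the lower effector levels was not tested.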

How the data were processed

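The authors deposited FPKM for 7 tumour libraries and raw counts per gene for controls 1 and 2. HISAT2, featureCounts, Subread and DESeq2 are named, per the submitters' processing notes, without their roles; paired-end libraries were prepared from poly(A) RNA, per the labels' protocols. Their versions and the genome build and annotation: not given in the sources used here. In the count files, deposited FPKM equal count over gene length and total, which gave 27421 lengths and, from the FPKM of all 7 libraries, whole reads (100% within 0.05 of a whole number). Symbols matched 98.0% of 32212 identifiers.

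The main test was limma 3.58.1 (R 4.3.3, trend, two-sided) on log2(FPKM + 0.5) for 14838 genes with at least 0.5 FPKM in at least 3 libraries, Benjamini-Hochberg adjusted over all of them. edgeR 4.0.16 (quasi-likelihood) and DESeq2 1.42.0 on 14832 genes with rebuilt reads were alternatives, with other pseudocounts, filters, scalings, weights, a replicate block and each library left out. DESeq2 gave no adjusted p for 1733 genes. The limma, edgeR and DESeq2 tests were checked on simulated reads, and the permutation test was not. For a gene 1 kb long, a single read equals 0.0200 to 0.0312 FPKM, depending on the library. The labels mention no molecular identifiers, so counts are not counts of independent molecules.

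The members and lists were chosen with earlier results of these data known. Values by library are given for the most abundant gene and the gene of smallest p in each role group and for genes with a positive log2 fold change; of the other genes, for Ifnb1, Stat2, Irf9 and Irf7, and at most 3 others per list are named by smallest p. The remaining members are given by mean and SD. 2 genes of the pathway lists are not reported here. Cd68, Epcam, Siglech, the fibroblast and skeletal muscle markers named and the neighbouring genes named were picked after their values were seen. Promoters came from RefSeq, overlaps and neighbours from GENCODE M21 (GRCm38). Figures were drawn with matplotlib 3.10.9.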

Additional observations from a re-analysis of the deposited data

How the results depend on the processing

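The limma count of called genes and of called members stayed at 0 under all alternatives run in limma and under edgeR, except that 1 gene, no member, was called with the replicate block. DESeq2 called 504 genes and 13 members. The count of members lower at an unadjusted p under 0.05 was 24 as deposited, 16 to 29 over all alternatives, and 20 with the replicate block. That block fit also left out control 4. Without control 4 and with no block the count was 21, and the members' median was -0.44 in both fits. Deviations of same-numbered libraries correlated at 0.22, 0.13 and -0.13, and those of differently numbered ones at -0.36 to 0.25. Taken from means of so few libraries, these values cannot decide whether the numbers pair the samples. The labels state no pairing. The members' median lay between -0.65 and -0.44 in every alternative. Single log2 fold changes reversed in 6 of 700 comparisons, those of Epsti1 (0.012 in edgeR and in DESeq2, 0.064 without ZQD 2, 0.053 without ZQD 3; -0.39 to 0.064 with 1 library left out), Ifi27l2a (0.087 without ZQD 3; -0.69 to 0.087) and Nmi (0.022 without ZQD 3; -0.22 to 0.022); the cause was not tested. The mitochondrially encoded share was 2.96 to 4.17 percentage points higher in ZQD with 1 library left out. The two-sided exact permutation p was 0.0667 without a ZQD library and 0.1 without a control. Each is the smallest possible there, since without a control the groups are of equal size and every split has a mirror image. Each member had at least 142 reads in every library that reads were rebuilt for, whereas Ifnb1, with at most 14, was limited by depth.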

Other observations

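Genes next to the 35 effectors were examined after the values above had been seen. In GENCODE M21, 40 immediate coding neighbours that are not themselves among the 35 passed the filter, and 11 of them (27.5%) were lower in ZQD at an unadjusted p under 0.05 with 1 higher, where 10.3% of all genes tested were lower. Their median log2 fold change was -0.17. The 11 include Trim30d and Phf11d, relatives of Trim30a and Phf11b. They also include Agrn, which encodes the matrix proteoglycan agrin and lies 1936 bases from Isg15, at 13.0 FPKM in ZQD and 21.2 FPKM in controls on average (log2 fold change -0.68, limma adjusted p = 0.131). Mvb12a beside Bst2 (-0.39), Gmeb2 beside Helz2 (-0.41) and Palld beside Ddx60 (-0.47) were lower as well. None of the 11 had a limma adjusted p under 0.05.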
